A study of Mus musculus with 16 samples.

Results

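Peroxisomal fatty acid oxidation was followed in the ileum through 9 genes, Ehhadh, Hsd17b4, Acaa1a, Acaa1b, Abcd3, Pex11a, Crot, Decr2 and Cat. They were chosen by name, as genes of the pathway, out of 23299 genes in the table, with earlier results of these data known. Their 28 listed transcripts were summed to 1 value per gene. All 9 had enough signal to be tested, among 19042 genes in all.

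The peroxisome shortens fatty acids that mitochondria handle poorly, above all very-long-chain and branched ones. Abcd3 is a transporter of the peroxisomal membrane that brings in acyl-CoA. After a first oxidation by acyl-CoA oxidases, which makes hydrogen peroxide, Ehhadh and Hsd17b4 carry out hydration and dehydrogenation, and the thiolases Acaa1a and Acaa1b release acetyl-CoA. Decr2 prepares unsaturated chains, Crot hands shortened chains to carnitine for export, Cat (catalase) breaks down the hydrogen peroxide, and Pex11a takes part in peroxisome division. In rodents many of these genes are known as targets of the fatty acid receptor PPAR-alpha, and in the small intestine the pathway belongs mainly to the absorptive enterocytes.

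The genes lie apart on the mouse genome (GRCm38), except for the thiolases, which share chromosome 9. Abcd3 is on chromosome 3 (121758774 to 121815302, minus strand), Ehhadh on chromosome 16 (21761287 to 21787807, minus) and Hsd17b4 on chromosome 18 (50128201 to 50196269, plus). Decr2 is on chromosome 17 (26081208 to 26090337, minus), Crot on chromosome 5 (8966033 to 8997324, minus) and Pex11a on chromosome 7 (79735957 to 79743131, minus). Cat and the thiolases are placed where their transcripts are described, and each value covers the annotated exons of the gene's transcripts.

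RNA was taken from the terminal ileum of C57BL/6 wild-type littermates (Tas1r3+/+) and of Tas1r3-/- mice, which carry the Tas1r3tm1Csz allele in all cells and lack a subunit of the sweet and umami taste receptors. The mice were 5 to 6 weeks old when assigned and then received a normal diet (ND) with plain water, or a Western diet (WD) of high-fat pellets with sucrose solution, for 10 weeks. Each of the 4 groups is labelled as 2 males and 2 females, and the comparisons ask how diet, genotype and their combination relate to ileal transcript levels. Whole ileum was used, so fewer cells of a type and less RNA per cell cannot be told apart.

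The values rest on 13 libraries. In ND-fed Tas1r3-/- mice both female columns were weighted means of the male columns in all but 17 and 18 of 59258 transcripts, none of them a transcript of the 9 genes, and were left out. In WD-fed Tas1r3-/- mice the female columns were related and were averaged. This left 4 ND-fed and 4 WD-fed Tas1r3+/+ libraries, 2 ND-fed Tas1r3-/- libraries (both male) and 3 WD-fed Tas1r3-/- libraries. The implied depth was 7004062 to 12384177 reads, and the gene values of the 9 rested on 85 to 1845 reads each, with WD-fed Tas1r3-/- male 1 the lowest for 8 of 9 genes. The deposited values summed to 817011 to 819916 in ND-fed and 542371 to 685274 in WD-fed libraries, so every diet comparison rests on the scaling between libraries. The targeted gene, Tas1r3, was at most 0.00452 RPKM as deposited in every Tas1r3-/- library. Wild-type mice had 2.17 ± 0.53 (SD, n = 4) with the ND and 4.96 ± 0.972 (SD, n = 4) with the WD. Of the ileal enterocyte markers all 5 were present, including the bile acid transporter Slc10a2, while liver and pancreatic genes were low. Of 5 hepatocyte markers 4 had values, and Alb and Fga were each either without values or under 1 in every library. The summed level of the list was 2.45 to 10.6. Of 6 pancreatic acinar markers 5 had values, and the same held for Pnlip and Amy2a5. The summed level of this list was at most 13.7 except in ND-fed Tas1r3+/+ mice, where it reached 25.3.

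All levels below are scaled RPKM, that is, RPKM (reads per kilobase of transcript, set against the library's total reads) divided by a library factor, so genes can be compared per length. Fold changes are differences of log2(scaled RPKM + 0.5) from limma with their standard error (SE), and calls needed a p under 0.05 after Benjamini-Hochberg adjustment over all genes. The labels do not say that samples came from separate litters or cages, so p-values measure the spread between these samples.

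Acaa1a was the most abundant of the 9 genes, with a mean over the 4 groups of 68.6, and it was above Cat, the next gene, in 13 of 13 libraries. Cat (34.4) and Abcd3 (32.3) followed and did not separate, with Cat higher in 8 of 13 libraries. Hsd17b4 averaged 22.6, below Abcd3 in 12 of 13 libraries and above Pex11a (15.4) in 12 of 13. Ehhadh (12.8), Crot (12.2) and Decr2 (11.5) lay close together, with Ehhadh above Crot in 7 of 13 libraries, and Acaa1b was the lowest at 9.82. These ranks are of sums over all transcripts of a gene. The protein-coding transcript Acaa1a-201 alone averaged 47.6 and 26.3 RPKM as deposited in ND-fed and WD-fed Tas1r3+/+ mice. The Cat sum was higher there, at 59.0 and 35.1. In Tas1r3-/- mice Acaa1a-201 lay above the Cat sum, at 38.85 and 23.6 against 27.5 and 20.4. The group mean was highest in a Tas1r3+/+ group for all 9 genes (ND-fed for 5 and WD-fed for 4). It was lowest in a Tas1r3-/- group for 8 of 9, the exception being Acaa1b. The same counts were not made over all genes. The 9 genes also varied together, so they do not count as independent of each other.

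**Figure D1:**
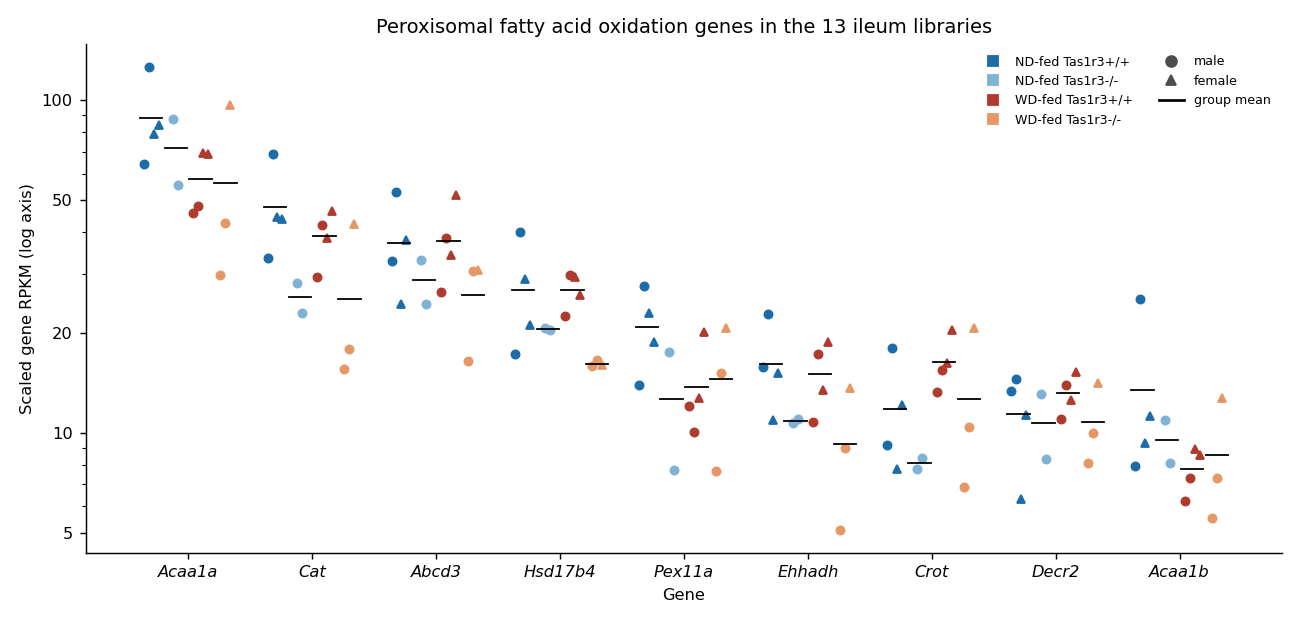
Scaled RPKM of the 9 genes (log axis) in each of the 13 libraries, coloured by group, with circles for males, triangles for females and a line at the group mean. Acaa1a, summed over all its transcripts, lies highest with group means of 56.4 to 88.3, and ND-fed Tas1r3+/+ male 2 is the highest library for 7 of 9 genes.

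Cat, whose product disposes of the hydrogen peroxide made in the first oxidation step, had the largest difference between genotypes. Its level was 33.6, 69.0, 44.6 and 44.0 in ND-fed Tas1r3+/+ mice (males 1 and 2, females 1 and 2) and 28.2 and 23.0 in ND-fed Tas1r3-/- males. It was 29.4, 42.2, 38.6 and 46.3 in WD-fed Tas1r3+/+ mice, against 15.5 and 17.8 in the WD-fed Tas1r3-/- males and 42.3 in the female mean. Both Tas1r3-/- libraries on the ND lay below all 4 Tas1r3+/+ libraries, whereas on the WD the female library lay within the Tas1r3+/+ range. The log2 difference of Tas1r3-/- from Tas1r3+/+ mice was -0.85 (SE 0.37, adjusted p = 0.898) on the ND and -0.75 (SE 0.33, adjusted p = 0.999) on the WD. Two-sided exact permutation tests gave p = 0.0667 on the ND, the smallest these group sizes allow, and p = 0.2 on the WD.

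Hsd17b4, the bifunctional enzyme that also serves branched chains and bile acid precursors, was the steadiest gene within the Tas1r3-/- groups. Its level was 15.8, 16.5 and 16.02 in the 3 WD-fed Tas1r3-/- libraries, against 22.4, 29.7, 29.5 and 25.9 in WD-fed Tas1r3+/+ mice. These groups did not overlap. The log2 difference was -0.71 (SE 0.24, 95% interval -1.24 to -0.19), with an adjusted p of 0.999 and an exact permutation p of 0.0286, the smallest possible with 35 splits. Groups that separate in this direction were 1.16% of all genes in this comparison. On the ND its level was 20.7 and 20.4 in Tas1r3-/- males, inside the range of 17.2 to 40.2 in Tas1r3+/+ mice.

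Ehhadh, the other bifunctional enzyme and a classical PPAR-alpha target, was 10.7, 17.2, 13.4 and 18.7 in WD-fed Tas1r3+/+ mice. In WD-fed Tas1r3-/- mice it was 5.11, 8.98 and 13.6, so the female library reached the Tas1r3+/+ range. The log2 difference was -0.74 (SE 0.32, adjusted p = 0.999, exact permutation p = 0.143). On the ND, Ehhadh was 15.8, 22.7, 10.9 and 15.1 in Tas1r3+/+ mice, and 10.7 and 10.96 in Tas1r3-/- males at the lower edge of that range.

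Across genotypes, 0 of the 9 genes passed the adjusted threshold on either diet, where 0.0263% of all genes did so on the WD and 0.00525% on the ND. At an unadjusted p under 0.05, Cat, Hsd17b4 and Ehhadh were lower in Tas1r3-/- mice on the WD, 3 of 9 beside 2.65% of all genes. Only Cat was so on the ND, 1 of 9 beside 4.55% of all genes, and it was also the only one whose groups separated downward there (12.5% of all genes). The estimate lay below 0 for 7 of 9 genes on the WD and for 9 of 9 on the ND, beside 50.3% and 46.9% of all genes. The median log2 difference of the 9 genes was -0.48 on the WD and -0.35 on the ND, and that of all genes -0.002 and 0.03. Averaged over the diets, a contrast added after the data were seen, the median was -0.44 and 0 of 9 genes were called, beside 0.0105% of all genes. Cat (-0.80, SE 0.25), Ehhadh (-0.62, SE 0.24) and Hsd17b4 (-0.51, SE 0.18) had an unadjusted p under 0.05 in it, as did 6.8% of all genes, and the smallest adjusted p of the 9 was 0.681 (Cat).

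A single library weighed on these medians. Without WD-fed Tas1r3-/- male 1, which was the lowest library for 8 of 9 genes and for 15.5% of all genes, the WD median was -0.14 in place of -0.48. Without the WD-fed Tas1r3-/- female library it was -0.70. Hsd17b4 stayed at -0.70 and -0.71 in these fits, while Ehhadh was -0.40 and -1.06 and Cat -0.48 and -1.19. On the ND, leaving out Tas1r3+/+ male 2, the highest library for 7 of 9 genes and for 7.34% of all genes, took the median from -0.35 to -0.14. Without ND-fed Tas1r3-/- male 1 it was -0.57, and without male 2 of that group -0.20. Among males alone the medians were -0.50 on the WD and -0.57 on the ND.

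**Figure D2:**
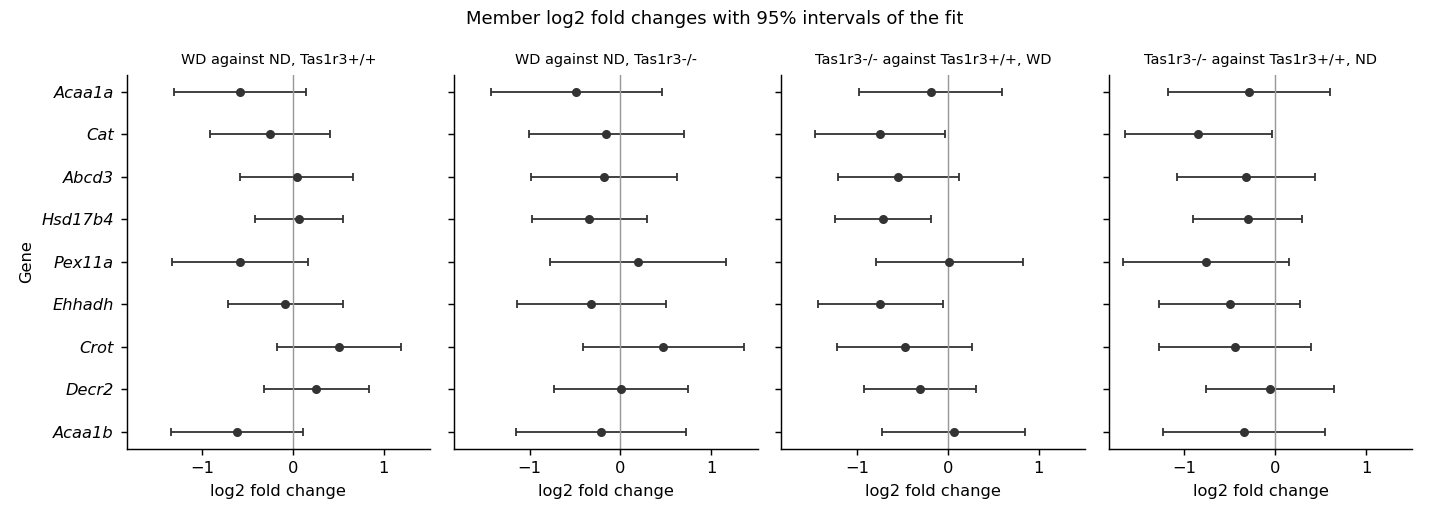
Log2 fold change of each of the 9 genes (points) with its 95% interval (bars) in the 4 comparisons, from the fit over 13 libraries. The interval excludes 0 for Cat, Hsd17b4 and Ehhadh in Tas1r3-/- against Tas1r3+/+ mice on the WD and for Cat on the ND, before any adjustment for the number of genes tested.

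The remaining genes did not separate between genotypes. Abcd3 was 26.6, 38.4, 34.2 and 51.7 in WD-fed Tas1r3+/+ mice and 16.4, 30.5 and 30.9 in WD-fed Tas1r3-/- mice (log2 difference -0.55, SE 0.31, exact permutation p = 0.2). Crot had -0.48 (SE 0.34) and Decr2 -0.31 (SE 0.29) on the same diet. Of the thiolases, Acaa1a had -0.19 (SE 0.36) and Acaa1b 0.06 (SE 0.36), and Pex11a had 0.02 (SE 0.37). The 95% interval for Pex11a ran from -0.79 to 0.82, so differences within these bounds in either direction are not excluded. On the ND, Pex11a had the second lowest estimate after Cat, -0.76 (SE 0.42), from levels of 13.9, 27.5, 22.9 and 18.7 in Tas1r3+/+ mice and 17.5 and 7.72 in Tas1r3-/- males.

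Diet was compared within each genotype. In Tas1r3+/+ mice, 0 of the 9 genes were called between WD and ND, beside 0.0578% of all genes, and 0 had an unadjusted p under 0.05, beside 15.5%. The thiolases and Pex11a had the lowest estimates. Acaa1a was 64.2, 126, 79.2 and 84.0 on the ND and 45.6, 48.0, 69.3 and 68.9 on the WD, so that its highest WD library lay above its lowest ND library (log2 difference -0.59, SE 0.34, adjusted p = 0.42). By transcript, the protein-coding Acaa1a-201 had a smaller estimate of -0.24 (SE 0.32). The transcripts of Acaa1a that do not code for protein had -1.39 (Acaa1a-202, SE 0.60), -0.26 (Acaa1a-204, SE 0.38) and -0.38 (Acaa1a-209, SE 0.33). Acaa1b was 7.94, 25.3, 9.32 and 11.2 on the ND and 6.25, 7.29, 8.92 and 8.59 on the WD (-0.62, SE 0.33, adjusted p = 0.39). Pex11a had -0.59 (SE 0.35, adjusted p = 0.433). Crot had the highest estimate, at 9.15, 18.0, 7.79 and 12.1 on the ND and 13.2, 15.4, 16.2 and 20.3 on the WD (0.50, SE 0.32, adjusted p = 0.458). The diet groups overlapped for each of the 9 genes, whereas they separated downward for 6.33% and upward for 4.23% of all genes.

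Without any scaling between libraries, 3 of the 9 genes passed in this comparison, Acaa1a (-1.04, adjusted p = 0.0313), Acaa1b (-1.06, adjusted p = 0.0356) and Pex11a (-1.03, adjusted p = 0.0313), together with 3441 of all genes. That setting follows the difference in column sums between the diets.

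In Tas1r3-/- mice, 0 of the 9 genes were called between WD and ND, as were 0.00525% of all genes, and 0 had an unadjusted p under 0.05, beside 5.56%. Hsd17b4 was lower in every WD than in every ND library (15.8, 16.5 and 16.02 against 20.7 and 20.4), a separation that 10.4% of all genes showed in this comparison. The exact permutation p was 0.1, the smallest that 2 against 3 libraries allow. Crot was 7.76 and 8.42 in the ND-fed males, against 6.88 and 10.4 in the WD-fed males and 20.6 in the WD-fed female library. In males alone its mean was 8.09 on the ND and 8.63 on the WD. Both ND-fed libraries are male, so in this comparison diet and sex cannot be fully told apart. No gene of the 9 passed for the interaction of genotype and diet (0.0% of all genes adjusted, 1.41% unadjusted, 0 of 9 unadjusted), and the estimates ran from -0.41 (Hsd17b4) to 0.78 (Pex11a) with SEs of 0.37 to 0.56.

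The transcripts behind the gene sums were compared as well. Of the 28 transcripts, 22 were tested among 43552. Protein-coding transcripts made up 100% of the summed RPKM of Ehhadh and Cat, 95.7% to 98.5% of Acaa1b in the group means, but 43.8% to 52.0% of Acaa1a, where retained-intron transcripts held the rest. For Decr2 the protein-coding part of the group means was 90.6% and 85.7% on the ND and 73.1% and 72.6% on the WD. For Hsd17b4 this part was 73.1% in WD-fed Tas1r3+/+ and 82.5% in WD-fed Tas1r3-/- mice. 1 transcript of the 22 was called for diet in Tas1r3+/+ mice, beside 0.491% of all transcripts. It was Cat-202, a short transcript of Cat, and it was singled out after its values had been seen.

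Cat lies on chromosome 2 (GRCm38, 103453849 to 103485160, minus strand). Its full-length transcript Cat-201 has 13 exons and 1581 coding bases, while Cat-202 has 6 exons and 528 coding bases. Cat-202 keeps 56 of the 111 bases of exon 3 and joins them to the last 87 of the 108 bases of exon 11, so exons 4 to 10 and 66.6% of the coding sequence are missing. The skipped 1053 coding bases, which span chr2:103456937-103474384, are a multiple of 3. The joint is shown because it is what tells Cat-202 from Cat-201, with the 10 bases that occur at both ends of the skipped stretch in capitals and 60 bases per line from the GENCODE M21 transcripts.
Cat-202 joint: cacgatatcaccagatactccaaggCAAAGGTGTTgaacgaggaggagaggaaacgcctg
Cat-201 exon 3: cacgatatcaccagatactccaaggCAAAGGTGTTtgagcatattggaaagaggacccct
Cat-201 exon 11: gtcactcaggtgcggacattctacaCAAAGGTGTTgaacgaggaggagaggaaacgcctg
The annotated joint lies in the middle of the repeated 10 bases, with 5 of them on either side.

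Scaled RPKM of Cat-202 was 13.2, 25.1, 19.9 and 15.1 in ND-fed Tas1r3+/+ mice and 13.4 and 8.05 in ND-fed Tas1r3-/- males. In WD-fed Tas1r3+/+ mice it was 3.77 in female 2, 0.0827 in male 2 and under 0.001 in male 1 and female 1. In WD-fed Tas1r3-/- mice it was 5.14 in the female library and at most 0.013 in both males. Every ND library was thus above every WD library, as it was for 1.2% of the transcripts tested. In reads, Cat-202 held an estimated 60.4 to 209 reads in the ND libraries and at most 28.2 in the WD libraries with a depth of their own. The log2 difference of WD from ND was -4.36 (SE 0.80, adjusted p = 0.0362) in Tas1r3+/+ mice, and -3.27 (SE 1.04, adjusted p = 0.564) in Tas1r3-/- mice, where 0 of 22 transcripts were called beside 0.023% of all transcripts. Cat-202 fell in Tas1r3+/+ mice at this threshold, but the call was lost when any of 9 single libraries was left out (all but WD-fed Tas1r3+/+ female 2 and the 3 WD-fed Tas1r3-/- libraries), with adjusted p up to 0.121, and at a pseudocount of 0.1 (adjusted p = 0.0807).

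Cat-201 was not lower on the WD. It was 19.7, 42.9, 24.6 and 27.4 in ND-fed and 30.3, 41.2, 40.0 and 42.3 in WD-fed Tas1r3+/+ mice (log2 difference 0.46, SE 0.28, adjusted p = 0.473). In Tas1r3-/- mice it was 15.2 and 14.98 in the ND-fed males, against 16.6 and 17.9 in the WD-fed males and 35.1 in the WD-fed female library. The gene sum of Cat therefore mixes transcripts with estimates of opposite sign for diet: -0.26 for the sum and 0.42 for Cat-201 alone in the gene-level fit of Tas1r3+/+ mice. Between genotypes Cat-201 gave -0.79 (SE 0.30) on the WD and -0.85 (SE 0.34) on the ND, close to the gene sum. The share of Cat RPKM given to Cat-202 was 34.9% to 46.8% in ND and at most 12.8% in WD libraries. This share is a ratio within each library, in which the library total behind the RPKM cancels. RPKM is per length, and Cat-202 has 779 bases against 2613 of Cat-201, so the share of Cat-202 in reads is smaller. In the ND libraries Cat-201 held an estimated 378 to 1064 reads, against 60.4 to 209 for Cat-202. Most bases of Cat-202 also belong to Cat-201, so the split between them is an estimate of the quantification. Diet and any difference in processing between the libraries of each diet cannot be told apart. What set the split apart between the diets was not tested.

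**Figure D3:**
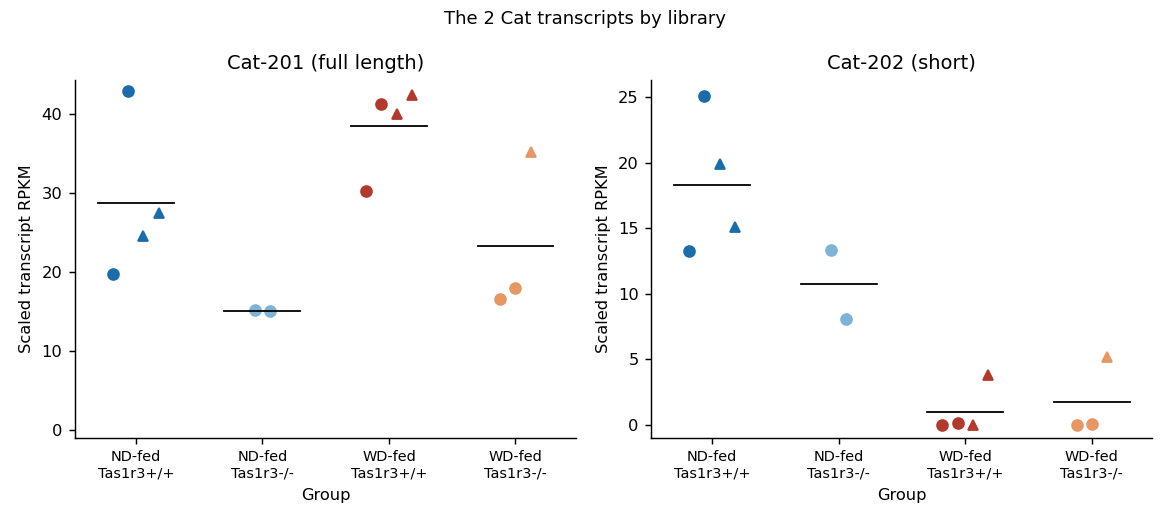
Scaled RPKM of the full-length transcript Cat-201 (left) and the short transcript Cat-202 (right) by group, with circles for males, triangles for females and a line at the group mean. Cat-202 is 8.05 to 25.1 in the 6 ND libraries and at most 5.14 in the 7 WD libraries, whereas Cat-201 overlaps between the diets.

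Acaa1a (chromosome 9, 119339676 to 119350299, plus strand) and Acaa1b (chromosome 9, 119148023 to 119157093, minus strand) are near-identical copies, so reads can be shared between them. Their main coding sequences have 1272 bases each and differ at 44, an identity of 96.5%, and 34.0% of the 50-base windows of Acaa1a-201 occur unchanged in Acaa1b-201. The stretch of 60 coding bases (259 to 318, counted from the start codon) with the most differences is shown, with the 11 differing bases in capitals.
Acaa1a-201: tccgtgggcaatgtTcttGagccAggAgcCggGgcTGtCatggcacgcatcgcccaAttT
Acaa1b-201: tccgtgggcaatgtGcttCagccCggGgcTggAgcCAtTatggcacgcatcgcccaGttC
A read that lies wholly within sequence of both transcripts cannot be assigned to either gene, so the separate levels of the 2 genes are uncertain. The window of 50 bases was a chosen length and not the read length, so the 34.0% does not measure that uncertainty. Across the 13 libraries the log2 levels of the 2 thiolases had a Pearson r of 0.90.

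The 9 genes varied together from library to library. Over the 36 pairs, Pearson r of the log2 levels across 13 libraries ran from 0.20 (Hsd17b4 with Decr2) to 0.91 (Ehhadh with Abcd3), with a median of 0.64. Against the mean of the other 8, Cat (0.90), Ehhadh (0.89) and Abcd3 (0.88) were the closest and Hsd17b4 (0.58) and Decr2 (0.60) the least close. The genes outside the 9 whose levels most resembled their mean profile were Slc25a34 (r = 0.96), Ms4a10 (0.96), the carnitine transporter Slc22a5 (0.95), Reep6 (0.95) and the brush border phosphatase Alpi (0.94). These correlations describe libraries that share group, tissue composition and scaling, and Alpi is itself an enterocyte marker.

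Enterocyte markers moved with the 9 genes. The 10 enterocyte markers (Alpi, Vil1, Sis, Anpep, Mttp, Slc5a1, Fabp2, Apoa1, Apoa4 and Krt20) were all present. Their mean log2 level had r = 0.91 with the mean profile of the 9 genes. Their summed level was 8229 to 12525 in ND-fed Tas1r3+/+, 3167 to 5943 in ND-fed Tas1r3-/-, 5707 to 17684 in WD-fed Tas1r3+/+ and 1296 to 15423 in WD-fed Tas1r3-/- libraries. WD-fed Tas1r3-/- male 1 was lowest in both the markers and the 9 genes. With the marker mean as a covariate, an alternative chosen after seeing the data, the median log2 difference of Tas1r3-/- from Tas1r3+/+ mice was -0.03 on the WD, 0.08 on the ND and 0.02 averaged, in place of -0.48, -0.35 and -0.44. In that fit Hsd17b4 was -0.64 (SE 0.26) on the WD, while Ehhadh was -0.34 (SE 0.21) and Cat -0.32 (SE 0.21). Estimates above 0 were those of Pex11a (0.50, SE 0.24), Acaa1b (0.47, SE 0.29) and Acaa1a (0.30, SE 0.21). Abcd3 (-0.17, SE 0.22), Crot (-0.03, SE 0.22) and Decr2 (-0.02, SE 0.25) lay between. Paneth cell markers went the other way between genotypes, with summed levels of 10968 to 32432 and 10974 to 23023 in ND-fed and WD-fed Tas1r3+/+ mice against 32859 to 61941 and 33043 to 49814 in Tas1r3-/- mice. As mean log2 levels they overlapped on the ND (9.30 to 11.2 in Tas1r3+/+, 10.97 to 11.95 in Tas1r3-/- mice). On the WD they did not (9.61 to 10.6 against 10.9 to 11.8). Smooth muscle markers (6 of 6 present) also ran against the 9 genes. Their mean log2 level was highest, 9.63, in WD-fed Tas1r3-/- male 1, and lowest in WD-fed Tas1r3+/+ female 2 (7.22) and ND-fed Tas1r3+/+ male 2 (7.37), the libraries with the highest mean profile of the 9 genes. Their summed levels overlapped between groups, at 1097 to 3334 in ND-fed Tas1r3+/+, 1984 to 3804 in ND-fed Tas1r3-/-, 1019 to 4012 in WD-fed Tas1r3+/+ and 1374 to 5302 in WD-fed Tas1r3-/- libraries. The part of enterocytes, Paneth cells and smooth muscle in the differences above was not tested. The covariate fit cannot separate fewer enterocytes from less RNA per cell, because the markers are RNA levels of the same libraries.

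**Figure D4:**
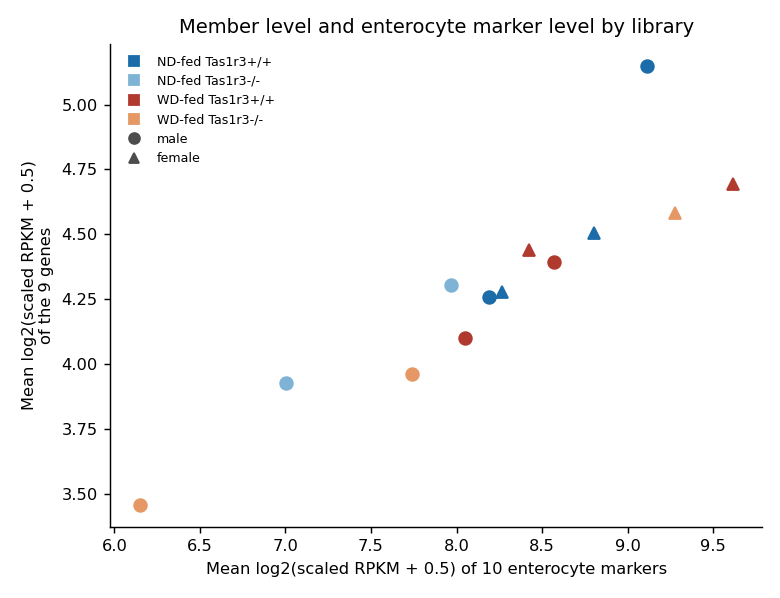
Mean log2(scaled RPKM + 0.5) of the 9 genes against that of 10 enterocyte markers, 1 point per library, coloured by group, with circles for males and triangles for females. The points rise together (r = 0.91 for the standardized profile), from WD-fed Tas1r3-/- male 1 at a marker mean of 6.15 to WD-fed Tas1r3+/+ female 2 at 9.61.

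Of the other genes of peroxisomal fatty acid oxidation, 22 were tested and 0 were called in any of the 4 comparisons. Their median log2 difference of Tas1r3-/- from Tas1r3+/+ mice was -0.22 on the WD (16 of 22 below 0) and -0.27 on the ND (19 of 22). Acox2, an oxidase of branched chains, had a mean of 8.004 ± 1.71 (SD, n = 4) in ND-fed Tas1r3+/+ mice and 3.19 ± 2.23 (SD, n = 2) in ND-fed Tas1r3-/- males, a log2 difference of -1.33 (SE 0.66, adjusted p = 0.898). On the WD, Hacl1, a lyase of alpha-oxidation, had -1.17 (SE 0.56) and the thioesterase Acot4 -0.54 (SE 0.51). Between diets in Tas1r3-/- mice the largest estimates were those of Hacl1 (-1.45, SE 0.67) and the protease Tysnd1 (-0.59, SE 0.19).

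The 15 peroxins, which build and divide the organelle, had medians closer to those of all genes, -0.07 on the WD and -0.11 on the ND between genotypes, and 0 were called. Pex16 (-0.74, SE 0.27) and the import receptor Pex5 (-0.61, SE 0.16, adjusted p = 0.119) had the largest differences between diets in Tas1r3+/+ mice, and Pex16 (-0.70, SE 0.35) and Pex13 (0.68, SE 0.30) in Tas1r3-/- mice. Between genotypes these were Pex11g (0.41, SE 0.28) and Pex19 (-0.40, SE 0.20) on the WD and Pex16 (-0.34, SE 0.33) and Pex19 (-0.33, SE 0.23) on the ND. Of 15 tested enzymes of the peroxisomal matrix and membrane, 0 were called. Idh1 (-0.61, SE 0.21) and Far1 (0.56, SE 0.39) had the largest diet differences in Tas1r3+/+ mice, and Pxmp2 (0.72, SE 0.29) and Ephx2 (0.67, SE 0.57) in Tas1r3-/- mice. Hao2 (-0.66, SE 0.38) and Pxmp2 (0.64, SE 0.24) led between genotypes on the WD, and Ephx2 (-1.07, SE 0.54) and Idh1 (-0.57, SE 0.26) on the ND.

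Mitochondrial fatty acid oxidation (17 tested) and ketogenesis (4 tested) had 0 calls as well. Their genotype medians were -0.19 and -0.07 on the WD and -0.13 and -0.18 on the ND. Bdh1, a ketone body enzyme, had -0.77 (SE 0.19, adjusted p = 0.119) between diets in Tas1r3+/+ and -0.57 (SE 0.25) in Tas1r3-/- mice. Between genotypes Acat1 had 0.23 (SE 0.24) on the WD and Bdh1 -0.23 (SE 0.24) on the ND. Among the mitochondrial genes, Acads, of short chains, was -0.46 (SE 0.25) and -0.77 (SE 0.32) between diets in the 2 genotypes, Hadha -0.44 (SE 0.36) between diets in Tas1r3-/- mice, and the carrier Slc25a20 -0.50 (SE 0.50) between genotypes on the ND. Of the 16 tested PPAR receptors and PPAR-alpha targets 0 were called, with medians of -0.42 on the WD (12 of 16 below 0) and -0.28 on the ND (13 of 16). Creb3l3, a transcription factor of fasting, had the lowest ND estimate at -2.33 (SE 0.90, adjusted p = 0.898), with means of 46.2 ± 20.8 (SD, n = 4) for the wild type and 8.67 ± 5.38 (SD, n = 2) for the knockout. Angptl4 (-1.34, SE 0.80) and Fabp1 (1.07, SE 0.71) had the largest diet estimates in Tas1r3+/+ mice, and Creb3l3 (1.40, SE 0.95) and Angptl4 (-1.22, SE 1.04) in Tas1r3-/- mice.

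**Figure D5:**
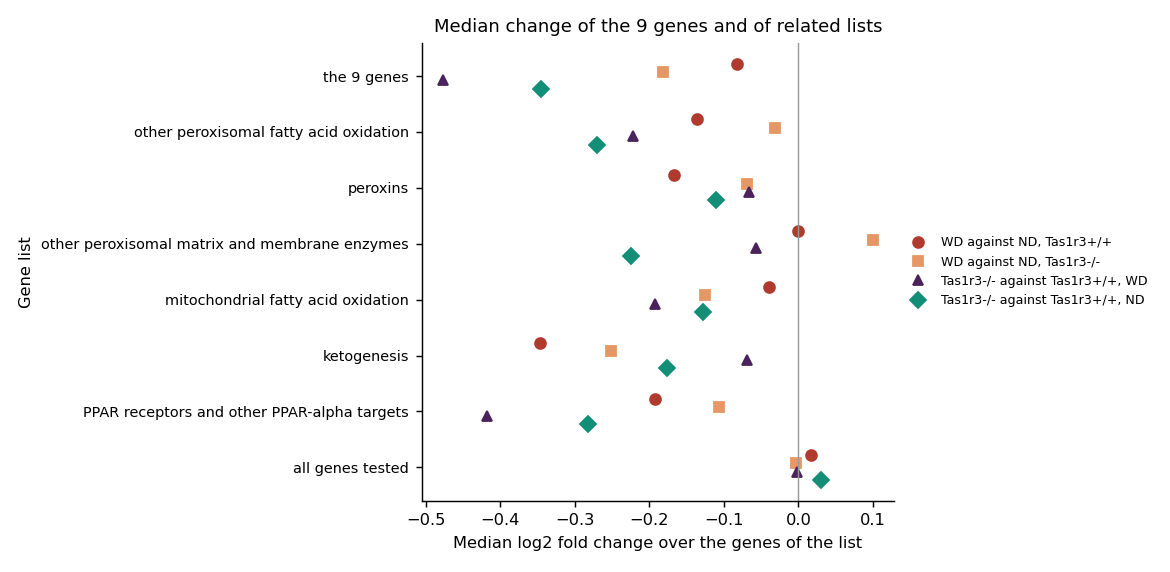
Median log2 fold change of the 9 genes, of 6 related gene lists and of all genes tested (rows) in the 4 comparisons (symbols). The 9 genes have the lowest medians between genotypes, -0.48 on the WD and -0.35 on the ND, beside -0.002 and 0.03 for all genes; no gene of any list was called in these comparisons.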

How the data were processed

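Libraries of ileal RNA were run on an Ion Proton instrument. The authors mapped the reads to GRCm38 (mm10) with STAR in Partek Flow and quantified Ensembl transcripts. The deposited RPKM values are per transcript, already divided by transcript length and a library total by the authors. For genes with 1 transcript, the product of RPKM and length was a whole multiple of 1 step, taken as 1 read, for 86.5% to 87.8% of values within 0.02 reads, which gave the depth. On 1 kb, 1 read is worth 0.0692 to 0.139.

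Transcripts were matched by name to GENCODE M21 (98.2%) and summed to genes. A gene was tested where 2 or more libraries had an RPKM of 1 or higher. Scaling used trimmed means of log ratios (30% of ratios and 5% of levels trimmed at each end). Values of log2(scaled RPKM + 0.5) were fitted with limma 3.58.1 (R 4.3.3), 4 groups in 1 model with a mean-variance trend. Fold changes on this scale understate changes of low genes. Single genes had two-sided exact permutation tests, for which the smallest p is 0.029 (4 against 4 or 3), 0.067 (4 against 2) or 0.1 (3 against 2). The fit was tested on simulated data. Summaries used Python 3.11.15, pandas 2.3.3 and numpy 2.4.6, and figures matplotlib 3.10.9.

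The members and lists were chosen with earlier results of these data known. Genes named besides the 9 are, per list and comparison, those called or, where none was, the 2 with the largest difference, plus the 5 most like the mean profile. Some genes that this rule names are not reported here. Cat-202 and genes named for their digits were chosen after their values were seen. Alternatives were other scalings, pseudocounts, filters, covariates, column treatments, gene values and thresholds, and each library left out.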

Additional observations from a re-analysis of the deposited data

Results flagged for a closer look

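The short catalase transcript Cat-202 had 1 library far from the others in WD-fed Tas1r3+/+ mice. Female 2 had a scaled RPKM of 3.77, while the other 3 libraries had at most 0.0827, and the gap was 0.978 of the range of the group, above the limit of Dixon's test for 4 samples. It was the only one of 22 groups examined, and chance alone sets apart about 1 group in 20. Without this library the log2 difference between the diets in Tas1r3+/+ mice was -5.16 (adjusted p = 0.0135), in place of -4.36. The cause was not tested.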

How the results depend on the processing

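The count of called genes among the 9 was 0 under every setting and in every comparison, also with each library left out in turn (0 to 0), with 1 exception: with the RPKM as deposited and no scaling it was 3 for diet in Tas1r3+/+ mice. Directions of genes near 0 were less stable. Differences are written as diet in Tas1r3+/+ (d+), diet in Tas1r3-/- (d-), and genotype on the WD (gW), on the ND (gN) or averaged (gA), on the log2 scale. With no scaling, d+ was -0.38 for Hsd17b4, -0.41 for Abcd3 and -0.18 for Decr2, d- was -0.19 for Pex11a and -0.37 for Decr2, and gW was -0.060 for Acaa1b and -0.11 for Pex11a. With RLE scaling gW of Pex11a was -0.0038, and with the 2 groups alone -0.026. In males only, d+ was -0.025 for Hsd17b4, -0.38 for Abcd3 and -0.16 for Decr2, d- was -0.11 for Pex11a and -0.20 for Decr2, and gW was -0.074 for Acaa1b and -0.026 for Pex11a. With all 16 columns as labelled, d- of Cat was 0.063 and gW of Acaa1a 0.053, and with the related female columns as 2 libraries 0.094 and 0.064. With the most abundant transcript of each gene, d+ was -0.041 for Decr2 and 0.42 for Cat, d- was 0.26 for Abcd3, -0.26 for Decr2 and 0.52 for Cat, gW was -0.037 for Pex11a, and gN was 0.0053 for Acaa1a and 0.088 for Decr2. With the enterocyte marker mean as a covariate, d- was -0.065 for Decr2, gW 0.30 for Acaa1a, gN 0.29 for Acaa1a, 0.12 for Acaa1b, 0.12 for Abcd3, 0.075 for Crot and 0.28 for Decr2, and gA 0.30 for Acaa1a, 0.30 for Acaa1b, 0.15 for Pex11a, 0.022 for Crot and 0.13 for Decr2. The causes were not tested.

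With 1 library left out, the sign turned within these ranges: d+ of Abcd3 (-0.14 to 0.23), Ehhadh (-0.25 to 0.092) and Hsd17b4 (-0.12 to 0.28), d- of Abcd3 (-0.40 to 0.11), Acaa1b (-0.53 to 0.039), Cat (-0.60 to 0.11), Decr2 (-0.30 to 0.33), Ehhadh (-0.64 to 0.026) and Pex11a (-0.37 to 0.77), gW of Acaa1a (-0.67 to 0.17), Acaa1b (-0.25 to 0.31) and Pex11a (-0.29 to 0.40), gN of Acaa1a (-0.64 to 0.035) and Decr2 (-0.39 to 0.26), and gA of Acaa1b (-0.30 to 0.032).

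Over all genes, the 11 calls of diet in Tas1r3+/+ mice became 20 with RLE, 24 with upper quartile scaling, 3441 with none, 6 and 24 at pseudocounts of 0.1 and 1, 77 with a mean RPKM of at least 5, 120 with sex as a covariate, 1 with the 2 groups alone, 0 in males, 573 with 16 columns, 40 with the female columns as 2 libraries, 49 with the most abundant transcript, 897 with the marker covariate, 1 at an adjusted p under 0.01 with a 2-fold change, and 1 to 41 with 1 library left out. In the other comparisons they were 0 to 3 for diet in Tas1r3-/- mice, 0 to 7 for genotype on the WD, 0 to 3 on the ND and 1 to 11 averaged, except with 16 columns, where they were 288, 16, 4 and 37. The interaction had 0 calls in all fits but that with 16 columns (7).

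Same-numbered libraries of different groups had residual correlations of -0.20 to 0.57 (median 0.07, 7 of 16 pairs over 0.1). Differently numbered ones had -0.63 to 0.63 (median -0.03, 12 of 46 pairs over 0.1). The numbers were not taken as pairs, and a replicate block was run as an alternative. With the replicate block 0 of the 9 genes were called in every comparison, and 9, 0, 4 and 0 of all genes in the 4 comparisons. The diet difference of Cat-202 in Tas1r3+/+ mice kept its direction in every fit run. In males alone it was also called in Tas1r3-/- mice (-4.43, adjusted p = 0.0363). Depth limits Acaa1b most, at 85 reads in its lowest library.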

Other observations

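Among the related gene lists, 7 genes carried values with more than 6 significant digits, as 70 genes of the whole table did and none of the 9 peroxisomal genes did. They were Cpt1a, Cpt2, Acadm, Ppara, Pparg, Fabp1 and Cd36. On the WD the largest differences of their lists between genotypes were those of Pparg (2.11, SE 0.38), Ppara (1.73, SE 0.36), Cpt2 (1.43, SE 0.27) and Cpt1a (0.87, SE 0.20), all higher in Tas1r3-/- mice, with adjusted p-values of 0.206 to 0.708. Cpt2, the inner-membrane carnitine acyltransferase, had a scaled RPKM on the WD of 16.1 ± 5.11 (SD, n = 4) in the wild type and of 42.6 ± 2.88 (SD, n = 3) in the knockout. When the transcripts with such values were left out, its genotype difference on the WD was -0.28 in place of 1.43, and its diet difference in Tas1r3+/+ mice was 0.56 in place of -1.47 (adjusted p = 0.0528). Ppara stayed at 1.46. Pparg, Cpt1a and Fabp1 had no transcript left to test. On the ND the same setting gave 0.83 for Ppara in place of 0.99, while Pparg had 1.77 (SE 0.43) and Cpt1a 0.51 (SE 0.23) with these values. How such values arose was not tested.

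The promoters of 8 of the 9 genes were read from RefSeq (GRCm38.p6, 250 bases before to 50 after the start) and searched on both strands for a pair of AGGTCA half-sites separated by 1 base, the arrangement to which PPAR and RXR bind. Hsd17b4 was left out by choice, so the counts of the members say nothing of its promoter. Abcd3 entered with more than 1 promoter, so 9 member promoters stood for 8 genes. At 10 or more of the 12 half-site letters, 1 of these 9 promoters matched, that of Cat, and 3.86% of 32851 promoters did. The others matched at 7 or 8 letters. The Cat match is shown with its flanks (chr2:103485322-103485381, minus strand), half-sites in capitals.
Cat promoter: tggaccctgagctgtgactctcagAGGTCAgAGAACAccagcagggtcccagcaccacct
A match of letters is a description of this window and says nothing of binding.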
